A study of Mus musculus with 30 samples.

Results

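The T cell receptor complex and the factors around it were followed here through 10 mouse genes chosen by symbol: Cd3d, Cd3e, Cd3g, Cd247, Lck, Tcf7, Bcl11b, Themis, Ccr9 and Cd6. All 10 were among the 11275 genes of the bone marrow table, and 8 were among the 11740 genes of the table of LSK cells; Bcl11b and Themis had no row in the latter. The description covers 24 of the 30 RNA-seq libraries of a C57BL/6 mouse model that, by its title, asks how cytotoxic therapy acting on blood-forming and stromal cells bears on therapy-related myeloid neoplasms.

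The marrow libraries came from mice with disease, 6 with myelodysplastic syndrome (MDS) and 6 with acute myeloid leukaemia (AML), a mouse tag number being given for each. All 12 were wild-type recipients of marrow carrying 1 disrupted copy each of Egr1 and Apc (Egr1+/-, Apc del/+). The MDS grafts carried a short hairpin RNA (shRNA) against Luciferase, a control, and the AML grafts an shRNA against Trp53, so disease and shRNA cannot be told apart. ENU, an alkylating mutagen that stands in for chemotherapy, was given to donor and recipient in all 6 MDS mice and in AML 1, 4 and 5, to the recipient alone in AML 6, and not at all in AML 2 and 3. The LSK libraries came from lineage-negative, Sca1+, Kit+ marrow cells, the gate that holds haematopoietic stem and early progenitor cells, sorted about 2 months after transplant and before disease. They form 4 groups of 3: WT (no transplant, no shRNA), transplanted WT (WT marrow with the Luciferase shRNA in WT recipients, no ENU), EAP (Egr1+/-, Apc del/+ marrow with the Trp53 shRNA in WT recipients, no ENU) and EAP with ENU (the same, with donor and recipient treated). The 2 kinds of EAP libraries differ from the transplanted WT group in 2 alleles and the shRNA at once. Nothing in the labels says that LSK libraries of a group came from separate mice, so their p-values measure the spread between these samples, which may be technical.

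A T cell recognises antigen through a receptor whose signal is carried by the CD3 chains (Cd3d, Cd3e, Cd3g) and the zeta chain (Cd247). The kinase Lck phosphorylates these chains, and Themis and the surface protein CD6 tune the signal downstream. TCF-1 (Tcf7) and Bcl11b are transcription factors that set up and fix T lineage identity in the thymus, and Ccr9 is a chemokine receptor that guides progenitors to the thymus and lymphocytes to the gut. The full receptor is a mark of T cells, some of which circulate through bone marrow. In bulk samples, fewer cells of a type and less RNA per cell cannot be told apart.

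The deposited values are normalised read values with a sum of 803746 to 1118648 per marrow library and 808377 to 1437201 per LSK library. The 2 tables were normalised separately, so levels are compared only within each. In the marrow table nearly every value is a whole multiple of a step of its library, worth 0.044647 to 0.056603 units, which gave back 17341986 to 21698808 reads per library; no such step exists in the LSK table, and the depth behind its values is unknown. Trp53, the target of the shRNA, was at 65.5 to 173 in the 6 EAP libraries and 213 to 370 in the 6 WT libraries of LSK cells, with no overlap, and fell by 1.61 ± 0.27 (SE) on the log2 scale (limma adjusted p = 0.0474); in marrow it was at 23.0 to 58.0 in AML and 43.2 to 97.9 in MDS. The disrupted genes Egr1 and Apc showed no such fall in the same LSK libraries, with log2 differences of 0.07 ± 0.54 and 0.07 ± 0.28 (SE). In LSK cells, 3 libraries stand apart on the first principal component (WT 2, transplanted WT 3 and EAP 1), with the LSK marker Kit at 65.3 to 170.5 against 214.8 to 597.7 in the other 9. The transplant label of EAP 1 names WT marrow, against its other labels. In marrow, AML 3 had a mean correlation of 0.666 with the other libraries, against 0.8405 to 0.9057 for the rest.

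In MDS marrow the 10 genes were low, and in AML they split mouse by mouse. The MDS values were not uniform, with Cd3g at 1.27 to 9.61. MDS 3 was the lowest MDS library for every member but Tcf7, so 1 mouse set the lower end of those ranges. AML 4 and AML 5 had every member above the highest MDS library. AML 6 had Cd247, Lck, Themis, Cd6, Tcf7 and Bcl11b above the MDS range, with Cd3e and Cd3g within it and Cd3d just below it. AML 3 had 8 of 10 members below every MDS library. AML 1 and AML 2 stayed close to MDS. Each AML pattern is that of 1 mouse, so none has a replicate check.

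**Figure D1:**
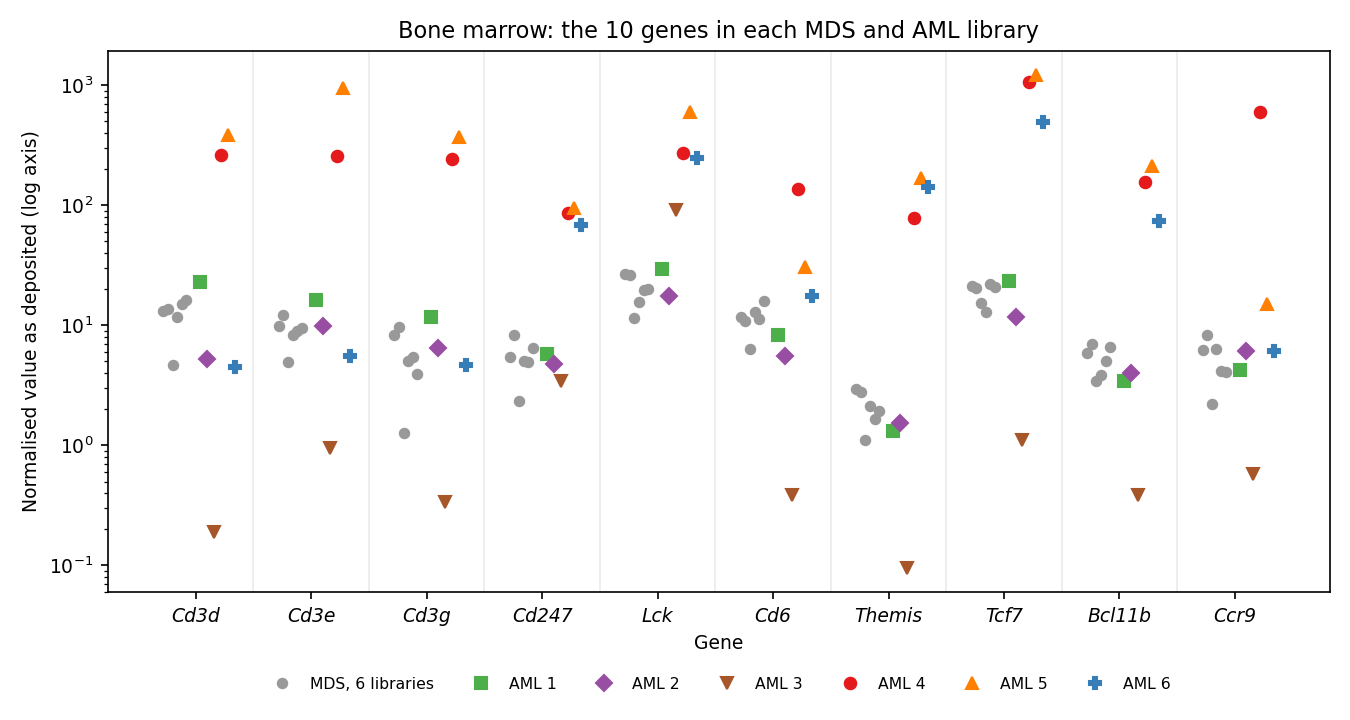
Normalised value of each of the 10 genes in the 12 marrow libraries, on a log axis, with grey points for the 6 MDS libraries and coloured points for AML 1 to AML 6. AML 4 and AML 5 lie above all MDS points for every gene, AML 6 does so for 6 of 10, and AML 3 is the lowest point for 8 of 10.

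The CD3 chains, the constant signalling part of the receptor, were first. Cd3e was at 4.98, 9.20 and 12.1 (lowest, median, highest) in MDS, and at 16.2, 9.93, 0.957, 258, 947 and 5.52 in AML 1 to AML 6. The value of 947 in AML 5 rests on 21208 reads and is 103 times the MDS median, and that of 258 in AML 4 is 28.1 times it. Cd3d was at 4.66, 13.4 and 16.3 in MDS and at 22.8, 5.26, 0.191, 260.2, 385 and 4.5 in the AML libraries. Cd3d in AML 6 was thus below the lowest MDS library, the opposite side from AML 4 and 5. Cd3g was at 1.27, 5.28 and 9.61 in MDS and at 11.6, 6.47, 0.335, 244, 372 and 4.68 in AML. In AML 3 the 3 chains together came from few reads: Cd3d from 4 (exact Poisson 95% interval 1.09 to 10.2), Cd3g from 7 (2.81 to 14.4) and Cd3e from 20 (12.2 to 30.9). These intervals cover counting error only, since reads without molecular identifiers are not independent molecules. Cd3g over Cd3d was 0.937 in AML 4 and 0.967 in AML 5, against 0.242 to 0.709 in MDS. This ratio was above the MDS range in AML 2 (1.23), AML 3 (1.75) and AML 6 (1.04) as well, and within it in AML 1 (0.510). Cd3e over Cd3d was 0.992 in AML 4 but 2.46 in AML 5, above the MDS range of 0.579 to 1.07. AML 2 (1.89), AML 3 (5.0) and AML 6 (1.23) were above that range too, and AML 1 (0.708) was within it.

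The 3 CD3 genes are neighbours on mouse chromosome 9 (GRCm38, GENCODE M21): Cd3g at chr9:44969572-44980431 on the minus strand, Cd3d at chr9:44981786-44987339 on the plus strand and Cd3e at chr9:44998740-45009627 on the minus strand. Cd3g and Cd3d start 1355 bases apart and point away from each other, and the starts of Cd3d and Cd3e are 27841 bases apart. The stretches just before the first exon of these 3 genes and of Lck, whose level parted from theirs in AML 3 and AML 6, are given below from RefSeq (GRCm38.p6), 5′ to 3′ on the gene's strand. Lck has 2 annotated starts in the table, at its distal and its proximal promoter. Capitals mark matches, on either strand, to short motifs. The TCF/LEF motif, of the family of TCF-1, was searched as CTTTGA and in its other common spelling CTTTGT. The RUNX motif was searched as TGTGGT, the GATA motif as AGATAA and the ETS motif as AGGAAG. The E box was searched as CAGCTG and in its other common spelling CACCTG.
Cd3g, chr9:44980432-44980681, minus strand: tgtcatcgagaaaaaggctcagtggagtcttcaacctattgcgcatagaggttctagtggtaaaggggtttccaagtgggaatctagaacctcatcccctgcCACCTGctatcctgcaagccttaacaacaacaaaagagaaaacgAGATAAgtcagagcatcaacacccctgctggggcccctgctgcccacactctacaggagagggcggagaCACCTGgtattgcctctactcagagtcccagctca
Cd3d, chr9:44981536-44981785, plus strand: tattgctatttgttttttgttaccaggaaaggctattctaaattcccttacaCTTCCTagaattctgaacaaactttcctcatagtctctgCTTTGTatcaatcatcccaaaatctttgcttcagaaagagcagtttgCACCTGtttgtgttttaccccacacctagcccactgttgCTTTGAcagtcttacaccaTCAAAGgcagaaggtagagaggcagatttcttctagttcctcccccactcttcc
Cd3e, chr9:45009628-45009861, minus strand: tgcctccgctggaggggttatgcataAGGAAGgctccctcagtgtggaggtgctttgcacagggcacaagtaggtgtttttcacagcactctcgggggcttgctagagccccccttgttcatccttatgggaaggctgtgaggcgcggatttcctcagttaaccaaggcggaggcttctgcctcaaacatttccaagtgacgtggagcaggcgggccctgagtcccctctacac
Lck, distal start, chr4:129573642-129573891, minus strand: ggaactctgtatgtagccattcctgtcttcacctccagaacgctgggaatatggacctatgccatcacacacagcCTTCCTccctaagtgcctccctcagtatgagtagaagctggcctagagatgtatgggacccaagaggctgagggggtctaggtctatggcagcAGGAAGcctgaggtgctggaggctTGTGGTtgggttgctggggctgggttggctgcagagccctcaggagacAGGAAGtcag
Lck, proximal start, chr4:129558392-129558622, minus strand: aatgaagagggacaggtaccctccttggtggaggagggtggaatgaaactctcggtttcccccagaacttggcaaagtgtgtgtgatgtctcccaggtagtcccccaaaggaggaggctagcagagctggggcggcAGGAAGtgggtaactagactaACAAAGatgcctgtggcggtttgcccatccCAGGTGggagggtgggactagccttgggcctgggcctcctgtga
The Cd3d window holds 3 TCF/LEF matches and the proximal Lck window holds 1, while the other 3 windows hold none. Of 32851 windows of 250 bases before RefSeq starts, 27.6% hold at least 1 TCF/LEF match, 29.5% an ETS match, 27.7% an E box match, 14.0% the RUNX and 9.99% the GATA match. ETS matches stand in 4 of the 5 windows, the exception being Cd3g, which has the only GATA match. The matches are letters in a window, and binding was not measured. The promoter table matched 9 of the 10 members, with Cd6 as the exception.

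The zeta chain, encoded apart from the others at chr1:165788681-165877277, behaved differently in AML 6. Cd247 was at 2.33, 5.27 and 8.34 in MDS, and at 5.79, 4.76, 3.44, 86.9, 95.5 and 68.4 in AML 1 to AML 6. Its value in AML 6 was 13.0 times the MDS median, while Cd3e there was 0.599 times, Cd3d 0.336 times and Cd3g 0.887 times it. Cd247 over Cd3e was 12.4 in AML 6, against 0.468 to 0.688 in MDS, 0.337 in AML 4 and 0.101 in AML 5. Zeta is also used by receptors of natural killer (NK) cells. Of the 12 NK and cytotoxic genes listed, 2 were above the MDS range in AML 6 (16.7%, against 34.8% of all genes). The other 10 were within it and none was below. Granzyme B (Gzmb, named after its values were seen) was above, at 81.5 in AML 6 against 0.530 to 2.66 in MDS. The part of such cells in the Cd247 value was not tested.

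Lck, the proximal kinase, was high in 4 AML libraries. It was at 11.5, 19.9 and 26.9 in MDS and at 29.6, 17.5, 91.6, 274, 592 and 246 in AML 1 to AML 6. AML 3 had 1914 Lck reads, a value 4.61 times the MDS median in a library where 8 other members were below the MDS range. AML 3 was also where the summed level of B cell markers stood out: that of the 10 measured was 2303, against 124.7 to 210.2 in MDS and 64.1 to 127 in the other 5 AML libraries. The list was split there, with 6 of 10 above the MDS range (60.0%, against 41.9% of all genes) and 4 below (40.0%, against 39.5%). The B cell transcription factors Ebf1 (420) and Pax5 (208), named after their values were seen, had MDS maxima of 9.06 and 5.93. Their part in the Lck value was not tested. Themis, a T cell adaptor that acts with Lck in thymocytes, was at 1.11, 2.04 and 2.94 in MDS and at 1.31, 1.53, 0.0957, 77.6, 169 and 141 in AML. In AML 6 its 3034 reads made it 69.1 times the MDS median, the highest fold of any member in that library. Cd6 was at 6.31, 11.5 and 15.8 in MDS and at 8.25, 5.53, 0.383, 137, 30.8 and 17.6 in AML, so only AML 4 was 10-fold or more above the MDS median.

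Among the transcription factors, Tcf7 had the highest level of any member in AML 4, 5 and 6. It was at 13.0, 20.6 and 22.1 in MDS and at 23.2, 11.7, 1.1, 1069.7, 1207 and 496 in AML 1 to AML 6. The 3 high values rest on 22528, 27023 and 10703 reads, and the low value of AML 3 on 23 (exact Poisson interval 14.6 to 34.5). Tcf7 was 51.9, 58.5 and 24.1 times the MDS median in AML 4, 5 and 6. Bcl11b, which closes off non-T fates, was at 3.45, 5.45 and 6.98 in MDS and at 3.44, 4.0, 0.383, 155, 213 and 73.8 in AML. Both factors were high in the same 3 libraries, and Cd3e in 2 of those 3: Tcf7 over Cd3e was 4.14 in AML 4, 1.27 in AML 5 and 89.9 in AML 6, against 1.55 to 3.07 in MDS.

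**Figure D2:**
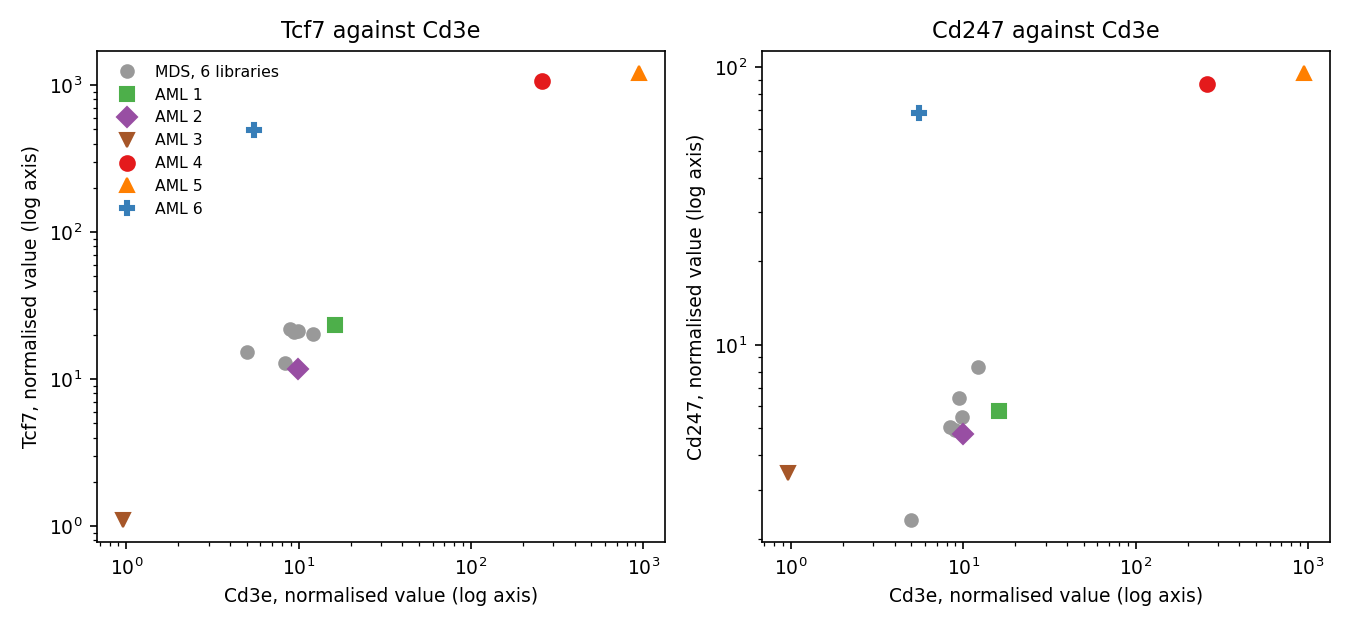
Tcf7 (left) and Cd247 (right) against Cd3e in the 12 marrow libraries, both axes logarithmic and in normalised units. AML 4 and AML 5 are high on both axes, AML 6 is high only on the vertical axis, and AML 3 is at the lower left for Tcf7.

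Ccr9, the homing receptor, was the member most tied to 1 library. It was at 2.23, 5.17 and 8.29 in MDS and at 4.26, 6.15, 0.574, 598, 15.2 and 6.16 in AML 1 to AML 6. The value in AML 4 was 115.7 times the MDS median, the largest fold of any member there, while AML 5 reached 2.94 times and AML 6 1.19 times it.

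Counted over the set, AML 4 had 10 of 10 members above the highest MDS library, where 36.2% of the 11275 genes were; AML 5 had 10 of 10 (36.3% of all genes) and AML 6 had 6 of 10 (34.8%). At 10-fold or more of the MDS median the counts were 10, 8 and 5, where 1.03%, 1.47% and 0.878% of all genes reached that size. Below the lowest MDS library were 0 members in AML 4 (33.3% of all genes), 0 in AML 5 (31.7%) and 1, Cd3d, in AML 6 (31.7%). AML 1 had 5 of 10 above the MDS range (22.1%) and 1, Bcl11b, below (21.1%). AML 2 had 0 above (31.6%) and 2, Tcf7 and Cd6, below (28.6%), and AML 3 had 1, Lck, above (41.9%) and 8 below (39.5%). In these 3 libraries 0 members were 10-fold or more above the MDS median, as were 0.0266%, 0.488% and 1.75% of all genes. The shares of all genes outside the MDS range are large in every AML library, so the counts at 10-fold set AML 4, 5 and 6 further from the background than the counts above the range do. The median fold of the 10 members over the MDS median was 1.11, 0.815, 0.0668, 28.3, 34.4 and 6.95 in AML 1 to AML 6, while that of all genes was 0.993 to 1.03.

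Between members, levels were ordered per kilobase of exon. In MDS the median values per kilobase were 7.85 for Tcf7, 7.37 for Cd3d, 6.78 for Lck, 2.25 for Cd3e, 1.61 for Cd3g, 1.45 for Cd6, 0.989 for Cd247, 0.672 for Bcl11b, 0.503 for Ccr9 and 0.174 for Themis. Neighbours in this order overlapped over the 6 libraries, apart from Lck (3.93 to 9.20) against Cd3e (1.22 to 2.97). Tcf7 also led in AML 4, 5 and 6 at 408, 460 and 189 per kilobase. The next member was Cd3d in AML 4 (143), Cd3e in AML 5 (232) and Lck in AML 6 (84.0), followed in AML 6 by Cd247 (12.8) and Themis (12), with Cd3d at 2.48.

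The wider receptor signalling list stood above the shares of all genes in AML 4 and 5. Of its 24 measured genes, 20 were above the MDS range in AML 4 (83.3%, against 36.2% of all genes) and 17 in AML 5 (70.8%, against 36.3%). In AML 6 there were 9 (37.5%), near the 34.8% of all genes, and in AML 3 there were 6 above and 15 below (62.5%, against 39.5% of all genes). Zap70, the kinase that binds the phosphorylated CD3 and zeta chains, was at 189 in AML 4 and 214 in AML 5 but 9.27 in AML 6 (MDS 2.76 to 7.69). The adaptor Lat followed Lck instead, at 70.1, 117, 336 and 115 in AML 3 to AML 6 (MDS 8.16 to 13.6). The coreceptors differed among themselves: Cd4 was at 8.21, 6.47 and 6.16 in AML 4, 5 and 6, within the MDS range of 4.24 to 11.3. Cd8a was above the MDS maximum of 10.3 in AML 4 alone (42.8), and Cd8b1 was above its MDS range of 0.954 to 5.98 in AML 4 (15.5) and AML 5 (16.7) but not in AML 6 (3.80). Of 16 T lineage transcription factors, 11 were above and 4 below the MDS range in AML 4 (68.8% above, against 36.2% of all genes), and 8 above and 3 below in AML 5. In AML 6 there were 5 above and 6 below, with a median fold of 0.867, and in AML 3 7 above and 6 below. Gata3 was at 95.7, 98.8 and 51.1 (MDS 2.01 to 4.56) in AML 4, 5 and 6, and Lef1 at 149, 595 and 1.11 there (MDS 1.62 to 3.17), with 269 in AML 3. Of 10 immature thymocyte genes, 9 were above the MDS range in AML 5 (90.0%, against 36.3% of all genes). There were 6 in AML 3 (60.0%, against 41.9%), the library where 8 members were below it. AML 4 had 4 above (40.0%, against 36.2%) and 4 below (40.0%, against 33.3%). In AML 5 Rag1, a subunit of the antigen receptor recombinase, was at 586 and the terminal transferase Dntt at 527, against 44.5 and 767 in AML 3 and 1.09 and 0.475 in AML 4. Zap70, Cd4, Cd8a, Cd8b1, Lef1 and Dntt were named after their values were seen.

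**Figure D3:**
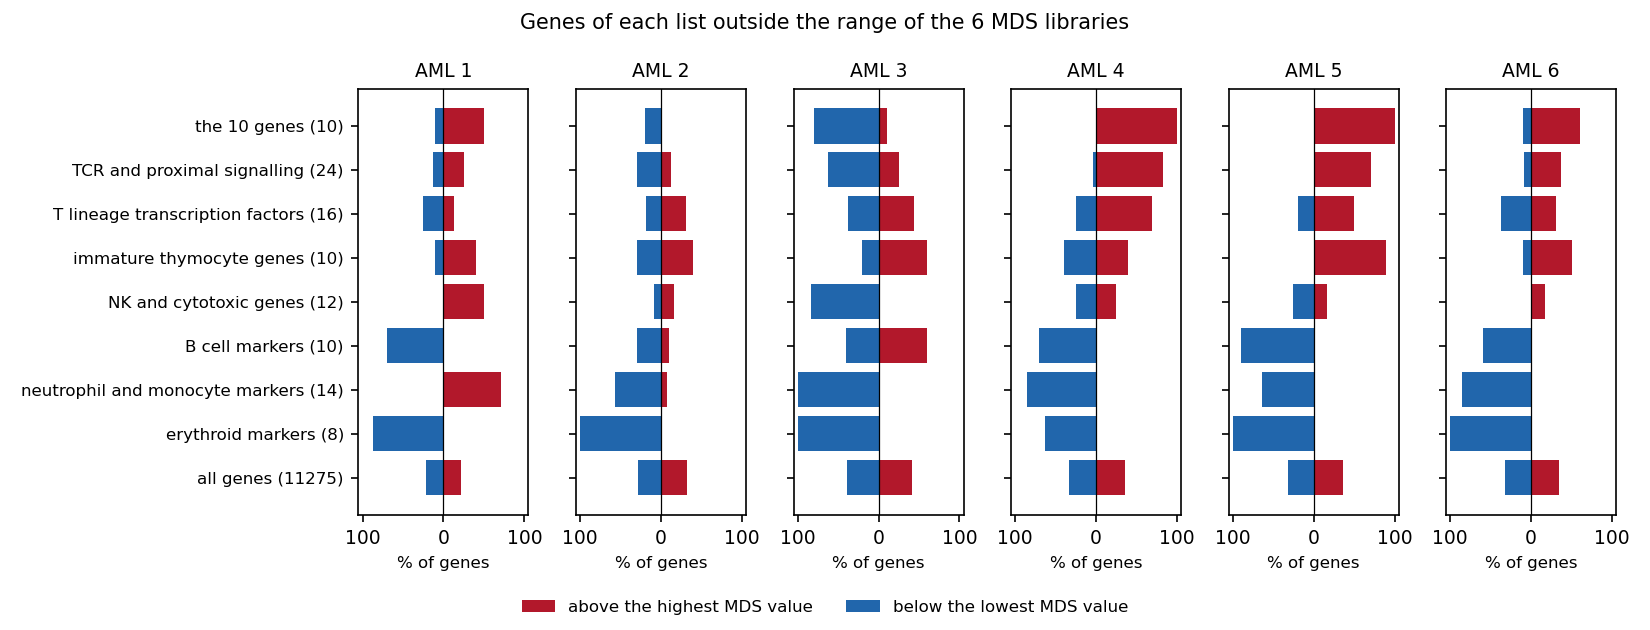
Percent of the measured genes of each list that lie above the highest (bars to the right) or below the lowest (bars to the left) MDS library, in AML 1 to AML 6, with the number measured in brackets. The members and the receptor signalling list are mostly above in AML 4 and 5, and the neutrophil and monocyte list is mostly below in AML 2 to AML 6.

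The sums of neutrophil and monocyte markers and of erythroid markers also left the MDS range, whether the members were high or low. The summed level of 14 neutrophil and monocyte markers was 57470 to 92550 in MDS and 114500, 23110, 460, 16300, 27040 and 9431 in AML 1 to AML 6, so that it was below the MDS range in all AML libraries but AML 1. The summed level of 8 erythroid markers was 7566 to 25370 in MDS and 372 to 5667 in AML. Of the 12 NK and cytotoxic genes, 3 were above and 3 below the MDS range in AML 4, and 2 above and 3 below in AML 5, shares under those of all genes, with median folds of 0.791 and 0.527. In AML 3 there were 0 above and 10 below (83.3%, against 39.5% of all genes). The part of cell composition in the member values was not tested.

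As groups, AML and MDS gave no member past the threshold, with a spread between AML mice far wider than that between MDS mice. Of 11273 genes tested with limma on log2(value + 1), 361 passed at an adjusted p of 0.05 (3.2%), and of the members 0 of 10 did. At an unadjusted p under 0.05 there were 2 members, Lck and Cd247, where 29.3% of all genes reached that level. Lck was at 20.02 ± 6.02 in MDS and 208 ± 217 in AML (mean ± SD, n = 6 each), a difference of 2.48 ± 0.73 (SE) on the log2(value + 1) scale (limma adjusted p = 0.0695). Cd247 was at 5.43 ± 1.97 and 44.1 ± 44.1, a difference of 1.82 ± 0.81 (limma adjusted p = 0.161). The SD in AML was as large as the mean or larger for most members, and no member separated the 2 groups (3.84% of genes tested did). For the other 8 the differences ran from 0.18 ± 0.84 (Cd6, limma adjusted p = 0.898) to 2.32 ± 1.24 (Themis, limma adjusted p = 0.220). The median difference of the members was 1.75 and that of all genes 0.04. With edgeR on the recovered reads, 1 member passed, Lck (log2 fold change 3.38, edgeR adjusted p = 0.0440), among 448 genes (3.97%); 9 of the 10 were at an unadjusted p under 0.05 (31.4% of genes). Without AML 1 or without AML 2, Lck passed in limma too, at adjusted p = 0.0197 and 0.0471, where 22% and 5.71% of genes did. All MDS mice had ENU in donor and recipient, and with AML 1, 4 and 5 alone, treated the same way, 10 of 10 members were at an unadjusted p under 0.05 (26.9% of genes), with a median difference of 3.24 against 0.02 for all genes. In that limma fit 0 members and 0 of 11275 genes (0%) passed the adjusted threshold, and the members' adjusted p ran from 0.108 to 0.175. The difference rests mainly on AML 4 and AML 5, where the median member fold over the MDS median was 28.3 and 34.4. In AML 1 it was 1.11.

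The other lists gave 0 of 24 receptor signalling genes, 0 of 16 transcription factors and 0 of 10 immature thymocyte genes past the limma threshold, with median differences of 0.99, 0.55 and 1.17. At an unadjusted p under 0.05 they gave 2 of 24, 4 of 16 (3 higher and 1 lower in AML) and 2 of 10 genes. Each is a smaller share than the 29.3% of all genes at that level. The receptor signalling genes with the smallest p were Fyn, a kinase of the Lck family (1.42 ± 0.45, limma adjusted p = 0.0803), and Lat (2.24 ± 0.78, limma adjusted p = 0.0979). Among the factors these were Id3, an inhibitor of E proteins (2.82 ± 0.80, limma adjusted p = 0.0643), and Gata3 (2.57 ± 0.78, limma adjusted p = 0.0736). Of 8 erythroid markers 3 passed, all lower in AML.

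Within AML, ENU treatment of donor and recipient (AML 1, 4 and 5) was compared with no ENU (AML 2 and 3), to ask whether exposure went with the level of these genes; AML 6 entered the fit as a cell of its own. All 10 members had a higher mean with ENU, and 0 of 10 passed the threshold, where 46 of 11275 genes did (0.408%). At an unadjusted p under 0.05 there were 9 of 10 (12.5% of genes) with limma; edgeR on the recovered reads gave 0 of 10 past the adjusted threshold (15 genes, 0.133%) and 10 of 10 at the unadjusted one (13.4%). Cd3d was at 22.8, 260.2 and 385 with ENU and 5.26 and 0.191 without, a difference of 5.62 ± 1.07 (limma adjusted p = 0.0524). Tcf7 was at 23.2, 1069.7 and 1207 with ENU and 11.7 and 1.1 without, a difference of 5.93 ± 1.39 (limma adjusted p = 0.0910). For 6 members (Cd3d, Cd3e, Cd3g, Cd247, Tcf7 and Cd6) all 3 values with ENU were above both values without, as for 8.31% of genes. AML 1 and AML 2 set the margin between the groups, and AML 1 lay far below AML 4 and 5 for all 10 genes. The median difference over the members was 4.28, over the 24 receptor signalling genes 2.12 and over all genes 0.03. The count rests on single libraries: 8 members passed without AML 1, where 181 genes did (1.61%), and 6 without AML 2, where 2559 genes did (22.7%).

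Among the lists, Satb1, a chromatin organiser of thymocytes, rose with ENU by 3.28 ± 0.55 (limma adjusted p = 0.0423), from 24.1 ± 11.4 without (n = 2) to 277 ± 182 with ENU (n = 3); it was the 1 factor of 16 to pass. Of the 24 receptor signalling genes none passed and 12 were at an unadjusted p under 0.05, led by Cd27 (3.71 ± 0.85, limma adjusted p = 0.0858), a co-stimulatory receptor, Cd28 (4.79 ± 1.1, limma adjusted p = 0.0878), the main co-stimulatory receptor, and Zap70 (4.58 ± 1.08, limma adjusted p = 0.0910). None of 10 immature thymocyte genes passed (median −0.05). Erythroid (median 4.25) and neutrophil and monocyte markers (median 2.97) were higher with ENU as well and B cell markers lower (median −2.52), in the same 5 libraries; their part was not tested.

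In LSK cells, before disease, the CD3 chains were low, at 0 to 6.47, and Lck was by far the highest member. Per kilobase of exon, the WT medians were 44.4 for Lck, 3.35 for Tcf7, 2.23 for Cd247, 1.21 for Cd6, 1.00 for Ccr9, 0.849 for Cd3d and 0.170 for Cd3g, with Cd3e listed at 0. In the EAP group Lck led at 26.4, followed by Cd3d at 1.42, with Tcf7 at 0.169. Cd3d was second to Lck in transplanted WT (2.44 against 2.28 for Tcf7) and in EAP with ENU (2.28 against 0.995 for Tcf7). The T cell label of the set is thus met in part in these sorted cells: Lck leads in every group, Tcf7 stands next in WT alone, and Cd3e, a defining T cell marker, is listed at 0 in 2 of 3 WT libraries and at 1.07 to 5.51 in transplanted WT.

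**Figure D4:**
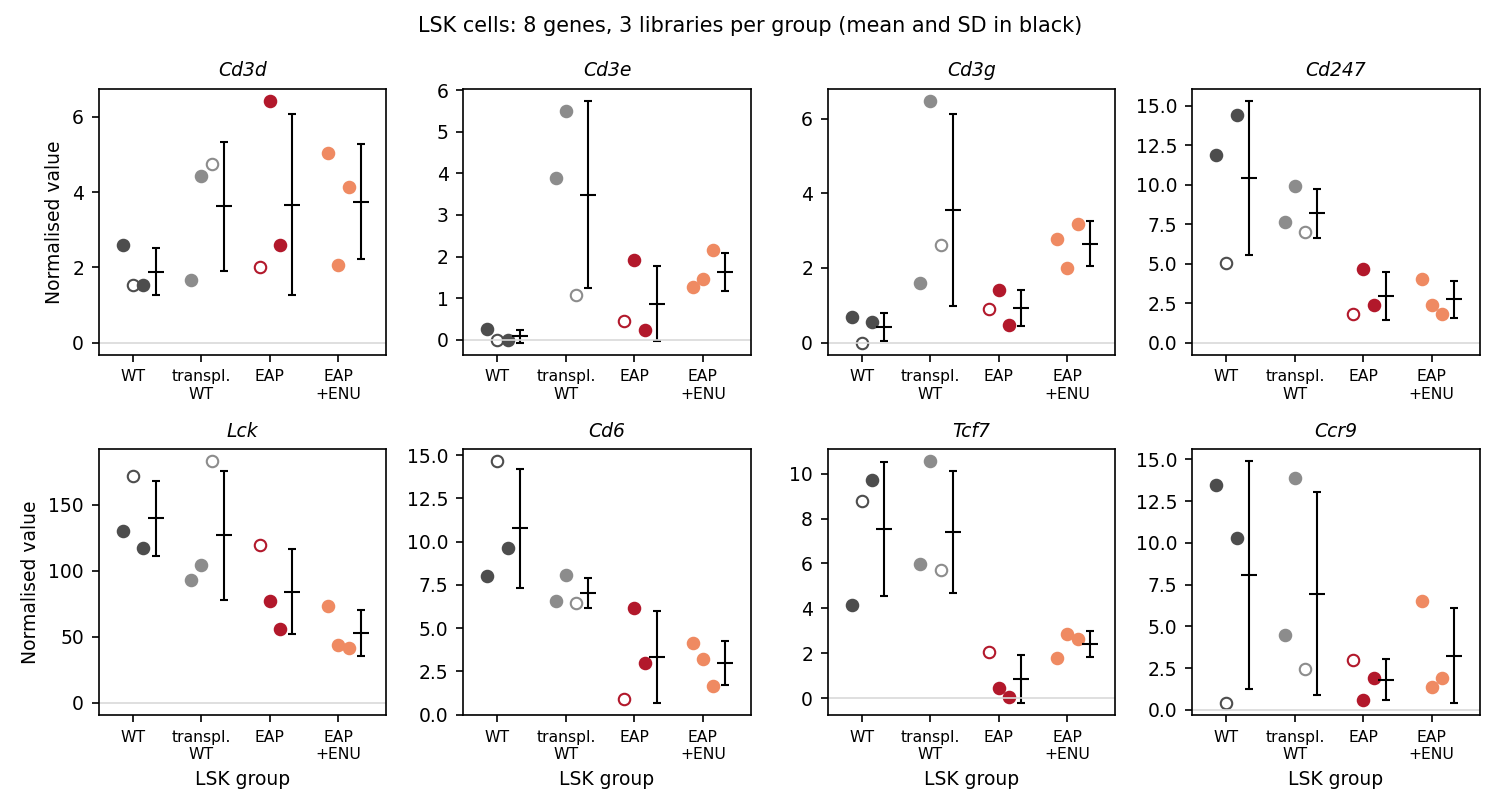
Normalised value of the 8 measured genes in the 12 LSK libraries by group, with black marks for mean and SD (n = 3) and open circles for the 3 libraries that stand apart. Tcf7, Cd247 and Cd6 are lower in all 6 EAP libraries than in all 6 WT libraries, and Cd3e and Cd3g reach their highest values in transplanted WT.

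Both EAP groups together were set against both WT groups, a comparison chosen after the values were seen. Transplantation is not balanced in it: all 6 EAP libraries came after transplant, but the WT group did not. Tcf7, Cd247 and Cd6 were lower in all 6 EAP libraries than in any of the 6 WT libraries, 3 of 8 members, where 0.486% of genes tested were so separated downwards. Tcf7 was at 4.14, 8.78 and 9.72 in WT and 5.97, 10.5 and 5.71 in transplanted WT, whereas EAP had 2.07, 0.445 and 0.0578 and the ENU-treated EAP libraries 1.77, 2.84 and 2.61. The lowest WT value, 4.14, stood above the highest EAP value, 2.84. The difference was −1.78 ± 0.31 (SE) on the log2(value + 1) scale (limma adjusted p = 0.0501), just outside the threshold. Cd247 was at 11.9, 5.01 and 14.4 in WT and 7.61, 9.92 and 7.02 in transplanted WT, against 1.78, 4.67 and 2.40 in EAP and 4.02, 2.38 and 1.80 with ENU, a difference of −1.41 ± 0.29 (limma adjusted p = 0.109). The gap was narrow, 5.01 in WT 2 against 4.67 in EAP 2. Cd6 was at 8.03, 14.6 and 9.66, then 6.58, 8.05 and 6.47, against 0.884, 6.14 and 2.97 in EAP and 4.14, 3.20 and 1.66 with ENU, a difference of −1.33 ± 0.32 (limma adjusted p = 0.179). Lck was at 130.1, 172 and 118, then 93.3, 104 and 183, against 119.5, 77.2 and 56.0 in EAP and 73.1, 43.5 and 41.7 with ENU, overlapping, a difference of −1.003 ± 0.248 (limma adjusted p = 0.187).

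In this comparison limma called 0 of 8 members and 19 of 11730 genes (0.162%), and 4 of 8 members were at an unadjusted p under 0.05 (7.42% of genes). The median difference was −1.02 for the members and −0.01 for all genes. Without the 3 libraries that stand apart, 4 members passed, all lower in EAP: Tcf7 (limma adjusted p = 0.0161), Cd247 (0.0219), Lck (0.0397) and Ccr9 (0.0472), among 380 genes (3.26%). Without EAP 1 alone Tcf7 passed (limma adjusted p = 0.0214; 0.282% of genes), and without WT 2 alone Cd247 passed (limma adjusted p = 0.0317; 0.393% of genes). The CD3 chains gave no such pattern in the pooled groups: Cd3d was at 3.71 ± 1.80 in the EAP libraries and 2.75 ± 1.49 in the WT libraries (SD, n = 6 each). Cd3e was at 1.25 ± 0.77 and 1.79 ± 2.34, and Cd3g at 1.79 ± 1.06 and 1.98 ± 2.38. For Cd3e and Cd3g the pooled WT libraries join low values in WT with higher ones in transplanted WT.

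No gene of the other lymphoid lists passed the threshold in this comparison. Of 22 receptor signalling genes 4 were at an unadjusted p under 0.05 (7.42% of all genes were), all lower (median −0.27), led by Cd5, a brake on receptor signalling (0.802 ± 0.743 against 2.41 ± 1.16). Of 9 immature thymocyte genes 3 were so, all lower (median −0.54): Rag2 (4.89 ± 1.85 against 15.1 ± 9.0), Dntt (381 ± 125 against 894 ± 501) and Il7r (3.21 ± 3.14 against 13.8 ± 11.7). This list was also lower in transplanted WT than in WT, with 0 of 9 differences positive (median −0.42). Dntt was at 1554, 511 and 1513 in WT and 516, 717 and 552 in transplanted WT. Against transplanted WT, 1 of 9 was at an unadjusted p under 0.05 in EAP (3.61% of genes). In EAP with ENU there were 0 of 9 (3.21%). With both EAP against both WT groups, 2 of 13 factors were at an unadjusted p under 0.05. These were Ets1 (−1.08 ± 0.24, limma adjusted p = 0.143) and Tox (−0.91 ± 0.29, limma adjusted p = 0.378). The list's median was −0.09, and 4 of 13 had a positive difference. The summed level of the 13 factors was 268.1 to 443.8 in WT, 242.8 to 349.2 in transplanted WT, 191.5 to 585.9 in EAP and 225.1 to 377.5 with ENU, overlapping. The summed level of neutrophil and monocyte markers was 2043 to 2245 in WT, 3222 to 7234 in transplanted WT, 2906 to 18240 in EAP and 7361 to 10450 with ENU; that of LSK markers was 2829 to 3784, 2511 to 2627, 2102 to 2634 and 2020 to 2425. Summed NK and cytotoxic genes were at 525.7 to 742.4, 964.3 to 1954, 493.7 to 1933 and 893.4 to 1038. Most of this sum was Nkg7, at 1908.5 in transplanted WT 3 and 1879 in EAP 1. Most of the neutrophil and monocyte sum was Mpo, at 14566.5 in EAP 1. Both genes were named after their values were seen. These 2 sums thus mostly follow 1 gene each and do not measure cell content. The part of the listed cell types in the member differences was not tested.

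**Figure D5:**
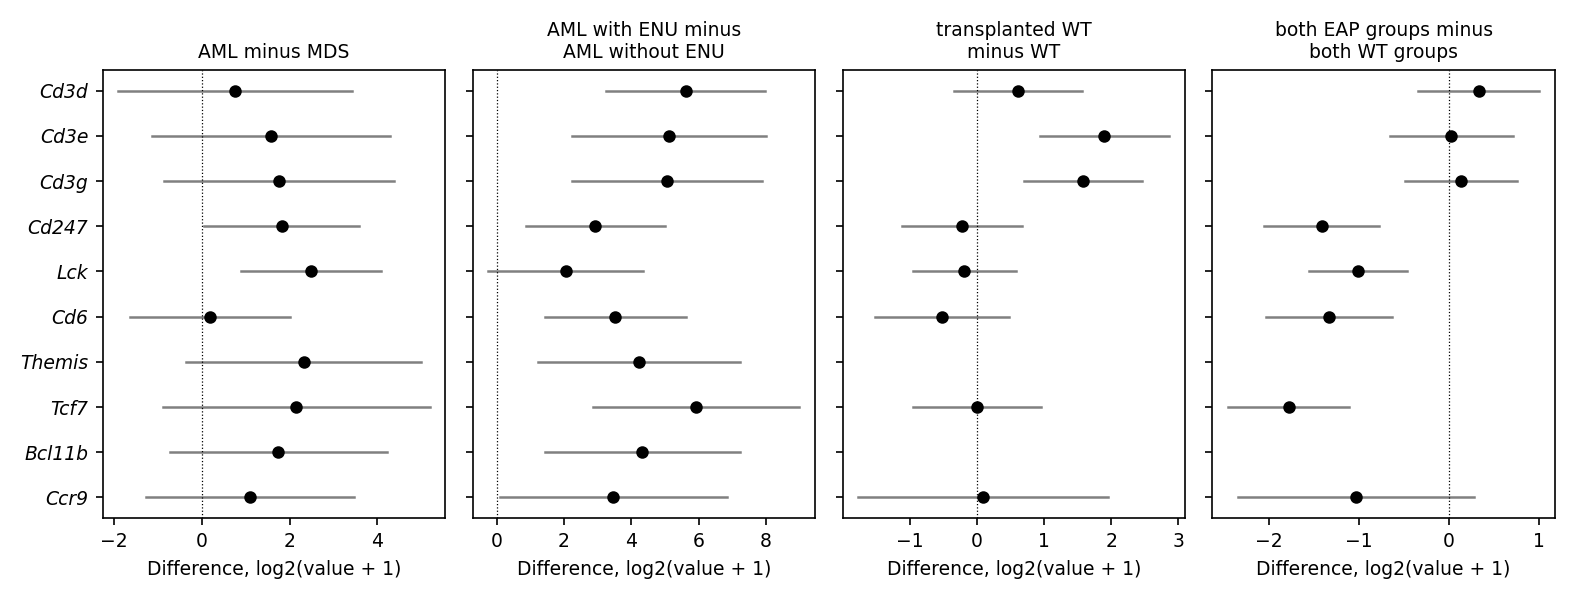
Difference in log2(value + 1) with its 95% confidence interval (limma) for each member, in 4 panels: AML minus MDS, AML with ENU minus AML without, transplanted WT minus WT, and both EAP groups minus both WT groups in LSK cells. No member passed the adjusted threshold. Intervals that leave out 0 are those of Lck and Cd247 in the first panel and of all members but Lck in the second. In the third panel they are those of Cd3e and Cd3g, and in the last those of Tcf7, Cd247, Cd6 and Lck.

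WT was compared with transplanted WT, groups that differ in transplantation and in the Luciferase shRNA at once, so the 2 cannot be told apart. Cd3e was at 0.268, 0 and 0 in WT and 3.89, 5.51 and 1.07 in transplanted WT, a difference of 1.90 ± 0.44 (limma adjusted p = 0.304). Cd3g was at 0.687, 0 and 0.554 against 1.58, 6.47 and 2.61, a difference of 1.58 ± 0.40 (limma adjusted p = 0.423). Both were separated upwards, 2 of 8 members, where 7.71% of genes were. With limma 0 of 8 members passed and 3 of 11730 genes did (0.0256%), and 2 of 8 were at an unadjusted p under 0.05 (7.29% of genes). Without the 3 libraries that stand apart Cd3e passed (limma adjusted p = 0.0295), among 498 genes (4.27%). The CD8 beta chain gene Cd8b1 was also higher, at 0.630, 1.96 and 0.348 against 4.59, 12.3 and 4.82 (limma adjusted p = 0.304), and of 11 NK and cytotoxic genes 3 were separated upwards, among them perforin (Prf1, 0.695 ± 0.0892 against 2.41 ± 1.99). Whether mature lymphocytes in the sort contribute to these low values was not tested.

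Each EAP group was also compared with transplanted WT, which both comparisons share as control. In EAP, Tcf7 (−2.28 ± 0.43, limma adjusted p = 0.312), Cd247 (−1.27 ± 0.41), Cd3g (−1.12 ± 0.40) and Cd6 (−1.09 ± 0.45) were separated downwards, 4 of 8 (3.18% of genes), with limma adjusted p of 1.00 for the last 3. None of 8 passed (3 genes of all did, 0.0256%), and 5 were at an unadjusted p under 0.05 (3.61%). They were the same 4 and Cd3e (−1.21 ± 0.44, with overlap). In EAP with ENU, Cd247 (−1.33 ± 0.41), Tcf7 (−1.27 ± 0.43), Lck (−1.23 ± 0.35) and Cd6 (−1.05 ± 0.45) were separated downwards, 4 of 8 (8.61% of genes), each with limma adjusted p of 1.00. None passed (0.0171% of genes did), and 4 were at an unadjusted p under 0.05 (3.21%).

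ENU within the EAP groups asked whether exposure shifted the members before disease. Cd3g was at 0.911, 1.42 and 0.461 without and 2.79, 2.00 and 3.17 with ENU, separated, a difference of 0.94 ± 0.40 (limma adjusted p = 0.909); it was the 1 member of 8 separated upwards (6.68% of genes). Tcf7 differed by 1.01 ± 0.43 (limma adjusted p = 0.909), with overlap. No member and no gene passed in limma (0%), and 2 members were at an unadjusted p under 0.05 (5.26% of genes). Without the 3 libraries that stand apart, 0 of 8 members passed in limma in this comparison and in both comparisons with transplanted WT, with 1 at an unadjusted p under 0.05 for ENU within EAP (26.4% of genes), 5 for EAP (14.2%) and 5 for EAP with ENU (8.32%).

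The genes whose profiles over the libraries were most like the mean profile of the members are given as a description. Over the 12 marrow libraries, among 10082 genes with a mean of at least 5, they were Cd27 (Pearson r = 0.985), Cand2 (0.983), Podnl1 (0.977), Zap70 (0.973) and Gzma (0.950). Over the 12 LSK libraries, among 9527 genes, they were Gsn (0.874), Cyb561a3 (0.868), Blnk (0.815), Paqr5 (0.801) and Kmo (0.80). No gene was in both lists.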

How the data were processed

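RNA was extracted with TRIzol and made into TruSeq Stranded mRNA libraries, per the labels' protocols. The submitters' processing notes name bcl2fastq, FastQC, TopHat, SAMtools and edgeR and the mouse build mm10, with no versions; for the counting step a program is not given. The deposited values are a normalised signal that the authors name CPM, although the sums differ between libraries. Marrow values are whole multiples of a step of each library for 99.9911 to 100% of values (tolerance 0.05 of a read), so reads could be recovered; LSK values show no step. Of the marrow rows, 155 naming a gene already listed under another symbol were merged, leaving 11275 genes; the stromal cell values were not used here.

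From these values, log2(value + 1) was fitted with limma 3.58.1 (R 4.3.3; trended empirical Bayes) across all genes with a value of at least 1 in 3 LSK libraries, in 6 of 12 marrow libraries for AML against MDS, or in 2 for ENU within AML. P-values were adjusted by Benjamini-Hochberg over all genes tested, at a threshold of 0.05. All 4 LSK groups shared 1 estimate of the spread. A fold on this scale understates the change of low genes. edgeR 4.0.16 (quasi-likelihood) on recovered marrow reads, a pseudocount of 0.1, no filter, another scaling, a replicate block and leaving out libraries were alternatives. Levels per kilobase used exon lengths of GENCODE M21. Python 3.11.15, pandas 2.3.3, NumPy 2.4.6, SciPy 1.17.1 and matplotlib 3.10.9 were used, and the fits were tested on simulated data. The members and gene lists were chosen with earlier results of these data known. Genes named are all 10 members; up to 4 genes per list with the smallest p in a comparison; and the 5 most alike in profile in each table; others are said to be chosen after their values were seen. The design assumed CPM; the same test on log values was kept.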

Additional observations from a re-analysis of the deposited data

Results flagged for a closer look

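On untransformed values, 3 members had 1 library of the AML group far from the other 5. Cd3e in AML 5 was at 947, and its gap to the next library was 0.728 of the group's range. Ccr9 in AML 4 was at 598, with AML 5 next at 15.2. Cd6 in AML 4 was at 137, with AML 5 next at 30.8. Each gap was above Dixon's 95% critical value for a group of 6. The ratio was taken on untransformed values, not on the log2(value + 1) scale of the fits. Of 20 groups of 6 looked at, 10 genes in MDS and in AML, these 3 passed it. A chance rate of about 1 in 20 holds for normally spread values in separate groups. The AML values are skewed and the 10 genes share the same mice, so that rate is no guide here.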

How the results depend on the processing

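Of 494 alternatives over 37 member results, 464 kept direction and side of the threshold, 25 moved past the threshold in the same direction and 5 reversed. The reversals were in AML against MDS: Cd6 with a pseudocount of 0.1 (−0.036), and on leaving out 1 library Cd6 (−0.48 to 0.85), Cd3d (−0.071 to 1.6) and Ccr9 (−0.0066 to 1.71). The members' count past the threshold, 0 in every comparison, became 1 in AML against MDS with edgeR (Lck) and 0 to 1 leaving out libraries; in AML by ENU it became 1 with a pseudocount of 0.1 (Cd3d, limma adjusted p = 0.0440) and 0 to 8 leaving out libraries. In LSK cells it became 1 for transplanted WT against WT without the 3 libraries that stand apart, and for both EAP against both WT groups 1 with median-of-ratios scaling (Tcf7, limma adjusted p = 0.0493), 0 to 1 leaving out libraries and 4 without the 3 libraries. The choice to leave out those 3 was made after seeing the data.

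Counts over all genes moved more. AML against MDS: 361, 145 with a pseudocount of 0.1, 141 with the replicate block, 0 with only the AML mice whose donor and recipient both had ENU, and 0 to 2475 leaving out libraries. AML by ENU: 46, 108 with a pseudocount of 0.1, 15 with edgeR, 14 to 2559 leaving out libraries. Transplanted WT against WT: 3, 1 with the replicate block, 0 with these groups alone, 1 to 5 leaving out libraries, 498 without the 3. EAP against transplanted WT: 3, 0 with the block, 0 with these groups alone, 0 to 1 leaving out libraries, 1 without the 3. EAP with ENU against EAP: 0, and 1 without the 3. EAP with ENU against transplanted WT: 2, 1 with a pseudocount of 0.1, 1 with the block, 6 with these groups alone, 0 to 1 leaving out libraries, 6 without the 3. Both EAP against both WT groups: 19, 4 with the block, 4 to 46 leaving out libraries, 380 without the 3. The cause was not tested. Same-numbered samples share only a number (correlation of deviations −0.637 to 0.325 in LSK cells), and the replicate block left the members' count at 0. No paired analysis was possible because ENU-treated and untreated AML mice share no replicate number. The LSK depth is unknown, which limits the low CD3 values.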
